A study of Mus musculus with 12 samples.

Results

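Genes of the matrix proteases and their inhibitors were followed in tibialis anterior (TA) muscle of the mouse from before birth to adulthood. They were taken by name, as every protein-coding gene whose symbol begins with *Mmp* and a number, with *Adamts*, or is *Timp* with a single number, which gave 52 of the 55450 genes of the count table. There were 24 *Mmp* genes, 4 *Timp* genes, 19 *Adamts* genes and 5 *Adamtsl* genes. *Mmp24os1* met the rule by its name alone, since it lies on the strand opposite to *Mmp24* and is not a protease.

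RNA was sequenced from TA muscles of wild-type (WT) mice on a 129Pas background by the labels (129SvPas in the methods) before birth at embryonic day E18.5 and after birth at 2 weeks (wks) and 7 wks, with 4 mice per age and 12 libraries in all. No mouse carried a mutation or was treated, so the only comparison was that of age, and it asked how these genes changed as the muscle matured. The mice differed at each age, so no animal was followed over time. Libraries held 63018968 to 123449246 counted reads. Of the 52 genes, 45 had enough reads to be tested. *Mmp1a*, *Mmp1b* and *Mmp7* had no read in any library, and *Mmp10*, *Mmp20*, *Mmp21* and *Mmp24* had at most 8 reads in any library.

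Matrix metalloproteinases (MMPs) are zinc-dependent enzymes that are secreted or bound to the cell membrane and cut collagens, laminins, fibronectin and other proteins of the extracellular matrix. The ADAMTS enzymes are secreted relatives that cut proteoglycans, trim procollagens or process fibrillin-rich microfibrils, and the ADAMTS-like proteins share their outer domains but lack the protease domain. The TIMPs are secreted inhibitors that bind the active site of these enzymes, and TIMP2 also takes part, with membrane-bound MMP14, in the activation of MMP2. In muscle this system reshapes the sheath of matrix around the fibers during growth, innervation and repair.

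Levels are given as TMM-normalized CPM, which are counts scaled to a common library size, in the order of replicates 1 to 4, and levels of different genes are compared only after division by exon length (RPKM). Changes are log2 fold changes with their standard error (SE), tested by the quasi-likelihood test of edgeR with Benjamini-Hochberg adjustment over 19276 genes and a threshold of 0.05. A gene is said to have risen or fallen only where it passed this threshold.

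A group of 10 of these genes stands side by side in a cluster on chromosome 9, and 5 of their promoters are shown. These are 4 that share a motif and that of *Mmp8*, which lacks it. The genes differed in their course, except that *Mmp10* had too few reads to be tested. The sequences are the 100 bases before the RefSeq start site on GRCm38.p6, 5′ to 3′, with the AP-1 motif TGANTCA and the TATA box TATAAA in capitals. They lie on the plus strand at chr9:7272414-7272513 for *Mmp13*, at chr9:7347274-7347373 for *Mmp12* (the downstream of its start sites), at chr9:7445722-7445821 for *Mmp3*, at chr9:7502242-7502341 for *Mmp10* and at chr9:7558329-7558428 for *Mmp8*.
*Mmp13*: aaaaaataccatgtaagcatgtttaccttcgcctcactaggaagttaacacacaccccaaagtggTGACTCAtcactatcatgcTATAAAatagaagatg
*Mmp12*: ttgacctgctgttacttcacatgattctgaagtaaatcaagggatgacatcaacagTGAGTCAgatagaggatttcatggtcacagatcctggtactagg
*Mmp3*: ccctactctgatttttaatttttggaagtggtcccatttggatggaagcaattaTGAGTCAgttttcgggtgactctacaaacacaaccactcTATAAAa
*Mmp10*: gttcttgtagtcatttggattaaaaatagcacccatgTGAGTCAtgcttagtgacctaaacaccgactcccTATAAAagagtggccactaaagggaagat
*Mmp8*: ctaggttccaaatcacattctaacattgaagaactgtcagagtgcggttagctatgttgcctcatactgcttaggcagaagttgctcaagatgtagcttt

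Both strands of the 250 bases before the start were searched, and 36 of the 52 genes had such a window in the RefSeq table. AP-1 letters were found in 8 of the 36 genes, and all 8 belonged to the cluster on chromosome 9, against 6.75% of 32851 windows of the same length. *Mmp8* and *Mmp27* were the genes of the cluster without them. The upstream start of *Mmp12* and the downstream start of *Mmp7* also lacked them. For *Mmp8* and *Mmp10* the bases after the start matched no annotated transcript of the gene, so these starts are less certain. The motif began 35 bases before the start of *Mmp13*, 44 before that of *Mmp12*, 46 before that of *Mmp3* and 63 before that of *Mmp10*. The TATA letters stood in 10 of the 36 genes and in 12.4% of all windows. The letters CTANNNNTAG, a looser form of the motif of the muscle factor MEF2, were in none of the 36 and in 3.20% of all windows. In both searches N stood for any base, and *Mmp20* matched AP-1 as TGAATCA, while the other matches held C or G there. A match in these windows is a description of the sequence and does not show that a factor was bound.

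Genes with the motif differed in their course. *Mmp13*, with the motif, fell towards 2 wks, while *Mmp3* and *Mmp12*, also with it, rose. *Mmp10*, *Mmp1a*, *Mmp1b*, *Mmp7* and *Mmp20* also match the motif as searched and had at most 1 read in any library. *Mmp8*, without it, fell to 2 wks.

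**Figure D1:**
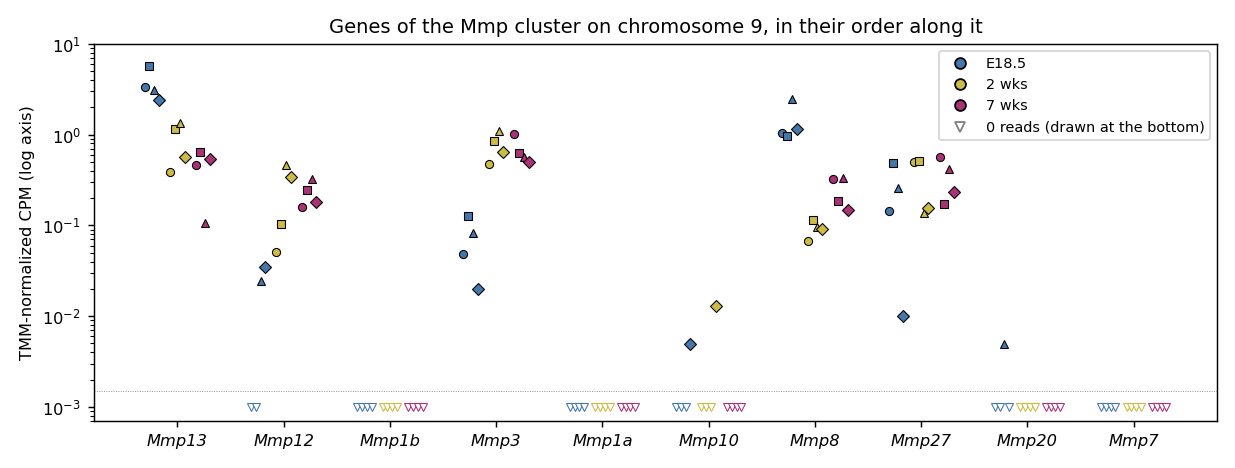
Levels of the 10 genes of the chromosome 9 cluster in their order along the chromosome (x axis) as TMM-normalized CPM on a log axis (y axis). Each point is 1 library, colored by age and shaped by replicate (circle, square, triangle and diamond for replicates 1 to 4), and open triangles on the bottom line are libraries with no read. *Mmp13* and *Mmp8* were highest at E18.5, *Mmp3* and *Mmp12* were higher at 2 and 7 wks than at E18.5, and *Mmp1a*, *Mmp1b* and *Mmp7* had no read.

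From E18.5 to 2 wks, 21 of the 45 genes tested passed the threshold, 8 upwards and 13 downwards. Of all genes tested, 65.7% passed, 31.5% upwards and 34.2% downwards, against 46.7% of the family. The median log2 change was -0.25 in the family and -0.09 over all genes tested. With scaling to total counts, which moved the median of all genes to -1.02, 7 rose, 30 fell and the family's median was -1.20. With the trend over GC content removed, 9 rose and 20 fell, and the medians were -0.51 in the family and -0.04 over all genes. From 2 to 7 wks, 21 of the 45 passed, 20 of them downwards, while 27.5% of all genes passed, 13.5% upwards and 13.9% downwards. The median change of the family was -0.74 against -0.03 for all genes. *Mmp8* was the gene that rose in this interval.

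Over the whole period from E18.5 to 7 wks, 10 rose and 24 fell, where 71.4% of all genes passed, 34.3% upwards and 37.1% downwards. With scaling to total counts 5 rose and 36 fell, and with upper-quartile scaling 7 rose and 31 fell. Of the 19276 genes tested, 15589 and 13902 passed under these scalings in turn. With the GC trend removed, 9 rose and 30 fell, with medians of -1.15 in the family and 0.02 over all genes, of which 14135 of 19034 passed. The change differed between the intervals for 19 of the 45 genes, being lower in the later interval for 17 and higher for 2, *Mmp8* and *Adamts6*. Over all genes 38.4% differed, 16.8% being higher and 21.6% lower in the later interval. Scaling to total counts gave 15 lower and 6 higher, and removing the trend over GC content gave 11 lower and 4 higher. Of all genes, 8433 of 19276 and 6366 of 19034 differed in turn.

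**Figure D2:**
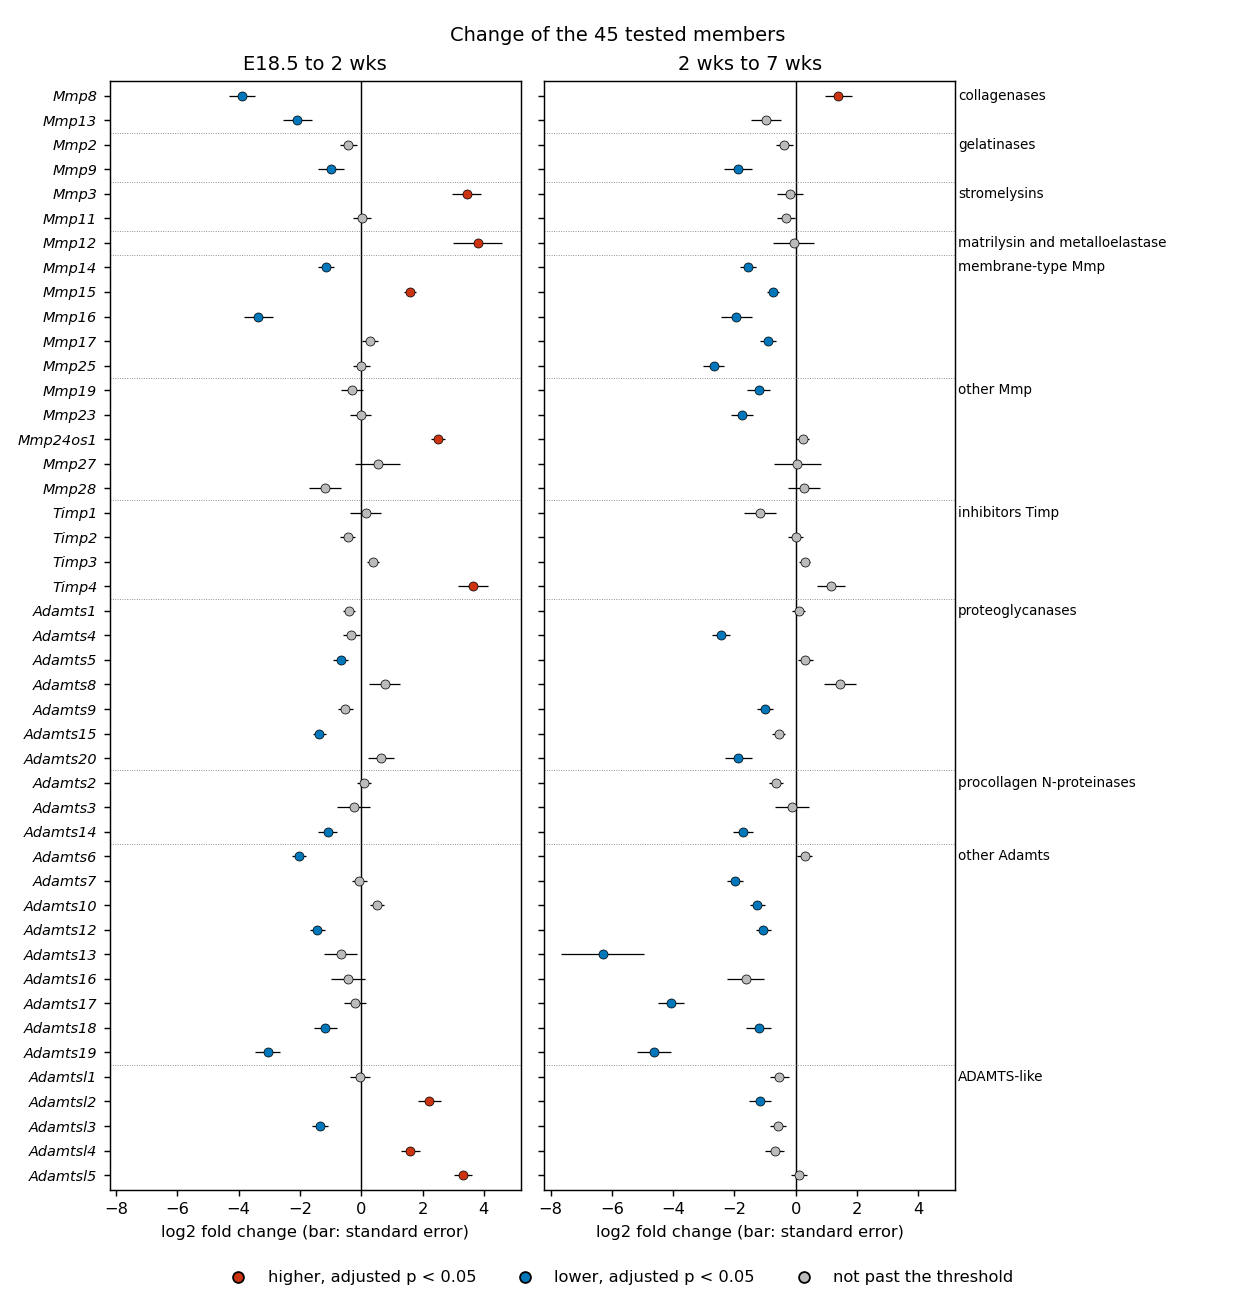
Log2 fold change with its SE (x axis) of the 45 genes tested (y axis), grouped by class, from E18.5 to 2 wks (left) and from 2 to 7 wks (right). Red and blue points passed an adjusted p of 0.05 upwards or downwards and grey points did not. On the left 8 points are red and 13 blue, and on the right 1 is red and 20 are blue.

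Of the inhibitors, *Timp4* rose after birth, *Timp3* was higher at 7 wks than at E18.5, and *Timp1* and *Timp2* passed in no comparison of ages with all 12 libraries. *Timp4* (ENSMUSG00000030317, chromosome 6), the TIMP known for its expression in heart, muscle and fat, was at 2.59, 3.10, 6.40 and 10.8 CPM at E18.5. It reached 59.8, 38.0, 90.1 and 98.3 CPM at 2 wks and 70.8, 178, 191 and 196 CPM at 7 wks. Every library at 2 wks stood above every library at E18.5, and 3 of the 4 at 7 wks stood above all at 2 wks, with replicate 1 lying among those of 2 wks. The rise to 2 wks was 3.64 ± 0.49 on the log2 scale (adjusted p = 2.4e-05), and the later change was 1.15 ± 0.44 (adjusted p = 0.069). Without 7 wks replicate 1 the later change was 1.40 with an adjusted p of 0.033, and it also passed without E18.5 replicate 1 or 4 (adjusted p 0.049 and 0.040). *Timp4* was highest at E18.5 in replicates 3 and 4, whose 4 adipocyte markers summed to 1855 and 2624 CPM, against 229 and 175 CPM in the others. Without both libraries, a check added after seeing the data, its changes were 4.65 and 1.15 (adjusted p 1.9e-05 and 0.024). The part of adipocytes in the level of *Timp4* was not tested.

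*Timp3* (ENSMUSG00000020044, chromosome 10), an inhibitor held in the matrix that also blocks ADAMTS enzymes, was at 185.5, 117.9, 134.7 and 169.5 CPM at E18.5. It was at 230.3, 171.5, 190.2 and 202.6 CPM at 2 wks and at 217.5, 215.1, 213.8 and 325.1 CPM at 7 wks. The libraries of E18.5 and 2 wks overlapped, while those of E18.5 and 7 wks did not. Neither interval passed the test with all libraries (the earlier one passed without E18.5 replicate 1, 0.50, adjusted p = 0.037), and over the whole period it rose by 0.68 ± 0.19 (adjusted p = 0.0053). This direction depended on the scaling, since with total counts the change was -0.59, which is a smaller fall than the median gene's under that scaling.

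*Timp2* (ENSMUSG00000017466, chromosome 11) was at 133.1, 181.8, 127.8 and 107.4 CPM at E18.5, at 102.8, 116.6, 99.8 and 84.5 CPM at 2 wks, and at 156.9, 92.8, 89.1 and 65.6 CPM at 7 wks. All 3 ages overlapped. The change to 2 wks was -0.45 with a 95% interval of -0.91 to 0.02, and that from 2 to 7 wks was 0.00 with an interval of -0.47 to 0.47. Without 7 wks replicate 1, *Timp2* was lower at 7 wks than at E18.5 by -0.73 (adjusted p = 0.0058).

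*Timp1* (ENSMUSG00000001131, chromosome X), the inhibitor known to be induced in inflamed and injured tissue, was at 4.14, 6.59, 4.06 and 3.20 CPM at E18.5, at 1.81, 2.16, 7.27 and 8.72 CPM at 2 wks and at 4.03, 2.11, 1.88 and 0.841 CPM at 7 wks. The 2 wks libraries fell into a low and a high pair that enclosed all but 1 of the others, and the later change of -1.18 ± 0.52 passed only without 7 wks replicate 1, of the 12 libraries left out in turn (-1.63, adjusted p = 0.046).

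**Figure D3:**
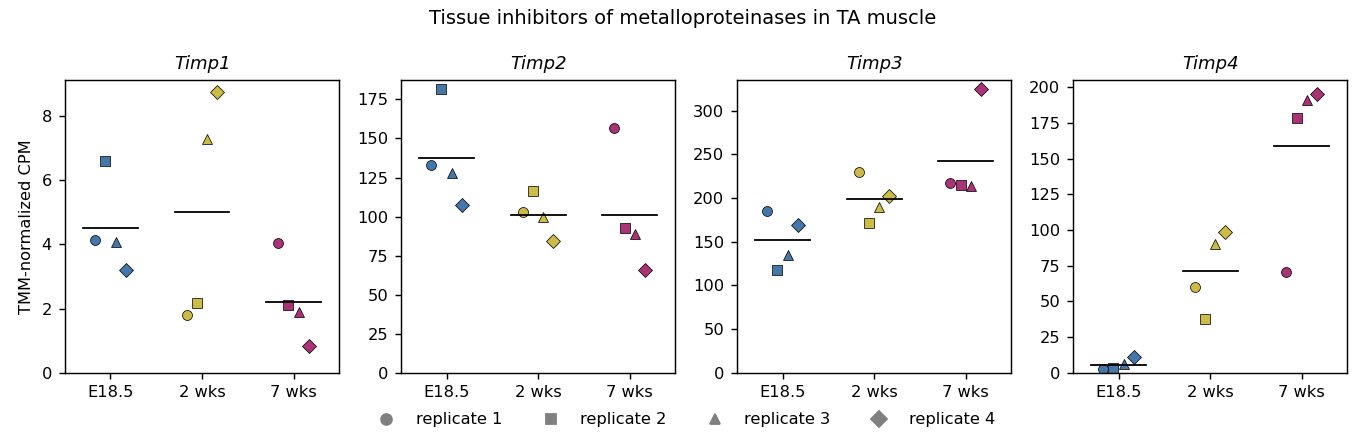
Levels of the 4 *Timp* genes in TMM-normalized CPM (y axis, from 0) at E18.5, 2 wks and 7 wks (x axis). Each point is 1 mouse, shaped by replicate, and the line is the mean of 4. *Timp4* lies below 11 CPM at E18.5 and between 38.0 and 196 CPM afterwards, while *Timp2* overlaps at all ages.

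The gelatinases *Mmp2* and *Mmp9*, which cut denatured collagen and the type IV collagen of basement membranes, were both lower at 7 wks than at E18.5. *Mmp2* (ENSMUSG00000031740, chromosome 8) was at 79.0, 158, 127 and 81.8 CPM at E18.5, at 94.9, 105.0, 70.9 and 60.6 CPM at 2 wks and at 95.7, 55.7, 63.6 and 41.9 CPM at 7 wks. The 3 ages overlapped. Its fall over the whole period was -0.79 ± 0.28 (adjusted p = 0.021), and it lost the threshold without E18.5 replicate 2 (-0.58, adjusted p = 0.079), 7 wks replicate 2 (-0.72, adjusted p = 0.058) or 7 wks replicate 4 (-0.63, adjusted p = 0.070).

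*Mmp9* (ENSMUSG00000017737, chromosome 2) was far less abundant, at 1.46, 3.93, 2.34 and 1.59 CPM at E18.5. It was at 1.12, 1.76, 1.36 and 0.444 CPM at 2 wks and at 0.481, 0.310, 0.184 and 0.297 CPM at 7 wks. Libraries of E18.5 and 7 wks did not overlap, and 1 library of 2 wks lay within the range of 7 wks. The fall from 2 to 7 wks was -1.90 ± 0.46 (adjusted p = 0.0082) and that over the whole period -2.88 ± 0.46 (adjusted p = 7.3e-05). The fall to 2 wks, -0.99 ± 0.41, lay at the threshold (adjusted p = 0.049). It was lost in 8 of 12 fits that left out 1 library, with adjusted p-values of 0.19 without E18.5 replicate 2 (-0.61), 0.076 without E18.5 replicate 3, 0.10, 0.069 and 0.13 without 2 wks replicates 1, 3 and 4, and 0.062, 0.051 and 0.062 without 7 wks replicates 2, 3 and 4.

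The membrane-type enzymes act at the cell surface, and all 5 that could be tested fell from 2 to 7 wks, where 13.9% of all genes did. *Mmp14* (ENSMUSG00000000957, chromosome 14), which activates pro-MMP2 and cuts fibrillar collagen, was the most abundant of them at E18.5, at 68.0, 140, 107 and 74.8 CPM. It was at 51.9, 50.4, 40.8 and 32.9 CPM at 2 wks and at 21.2, 14.8, 12.7 and 11.1 CPM at 7 wks. No library of any age overlapped those of another age. The fall was -1.15 ± 0.26 to 2 wks (adjusted p = 0.0013) and -1.56 ± 0.26 from 2 to 7 wks (adjusted p = 0.00089), which made 6.52-fold over the whole period.

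*Mmp16* (ENSMUSG00000028226, chromosome 4) showed the largest fall to 2 wks among genes whose mean log2 CPM was 0 or more. It was at 14.3, 7.92, 8.36 and 7.62 CPM at E18.5, at 1.66, 1.17, 0.684 and 0.222 CPM at 2 wks and at 0.381, 0.217, 0.199 and 0.181 CPM at 7 wks. The libraries of E18.5 stood apart, whereas those of 2 and 7 wks overlapped in 1 library. The changes were -3.36 ± 0.46 and -1.94 ± 0.50 (adjusted p 3.2e-05 and 0.012).

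*Mmp15*, the closest membrane-bound relative of *Mmp14*, took another course. It rose by 1.58 ± 0.19 to 2 wks (adjusted p = 1.2e-05), from 15.7 to 33.3 CPM at E18.5 to between 62.3 and 70.3 CPM, and then fell by 0.74 on the log2 scale to between 35.0 and 41.5 CPM (adjusted p = 0.012). Its rise over the whole period, 0.84 ± 0.19, was -0.44 with total counts. The difference between its intervals was -2.32 ± 0.32 (adjusted p = 0.00019), while that of *Mmp14*, -0.41 ± 0.43, did not pass.

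*Mmp25* and *Mmp17* are bound to the membrane by a lipid anchor and both fell from 2 to 7 wks. *Mmp25* was between 0.353 and 0.704 CPM at E18.5 and 2 wks and between 0.0602 and 0.107 CPM at 7 wks (-2.67 ± 0.34, adjusted p = 0.00012), and its change differed between the intervals (adjusted p = 0.0015). *Mmp17* fell by 0.91 on the log2 scale (adjusted p = 0.022) and lost the call without 2 wks replicate 1 or 4 or 7 wks replicate 2 or 4, with values of -0.85 to -0.91 (adjusted p 0.050 to 0.065). The difference between its intervals (-1.21, adjusted p = 0.047) was lost in 10 of 12 fits that left out 1 library (-1.06 to -1.33, adjusted p 0.062 to 0.117). Without E18.5 replicate 2 its change of 0.65 to 2 wks passed (adjusted p = 0.011).

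Both collagenases that were detected fell to 2 wks. *Mmp13* (ENSMUSG00000050578, chromosome 9), a collagenase of cartilage and bone, was at 3.37, 5.77, 3.14 and 2.41 CPM at E18.5, at 0.386, 1.15, 1.34 and 0.562 CPM at 2 wks and at 0.461, 0.652, 0.107 and 0.544 CPM at 7 wks. The libraries of E18.5 lay above all others and those of 2 and 7 wks overlapped. The fall to 2 wks was -2.08 ± 0.48 (adjusted p = 0.0016), and the later change of -0.97 ± 0.50 did not pass. Its highest value was in E18.5 replicate 2, whose 7 cartilage and bone markers summed to 120.1 CPM, against 16.9 to 38.1 CPM in the other E18.5 libraries, 34.8 to 50.0 at 2 wks and 39.6 to 49.4 at 7 wks. To 2 wks *Col2a1*, *Sp7* and *Ibsp* fell, *Alpl* and *Bglap* rose and *Col9a1* did not pass. *Alpl* made up most of the later sums, at 20.6 to 39.1 CPM at 2 wks and 35.5 to 42.6 CPM at 7 wks. *Ibsp*, a protein of bone matrix, was at 11.1 to 29.0 CPM at E18.5, 0.117 to 1.59 CPM at 2 wks and 0.0919 to 0.511 CPM at 7 wks. The cartilage gene *Matn1*, too low to be tested, was at 0.0249 to 1.47 CPM at E18.5 and had no read after birth. Other cartilage genes were read after birth, *Col2a1* at 1.43 to 6.80 CPM at 2 wks and 0.326 to 0.622 CPM at 7 wks. *Col9a1* was at 0.637 to 3.39 CPM at 2 wks and 1.99 to 3.99 CPM at 7 wks. The part of cartilage and bone cells in the level of *Mmp13* was not tested.

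*Mmp8*, the collagenase stored in neutrophils, was at 1.04, 0.956, 2.47 and 1.15 CPM at E18.5 and fell to between 0.0671 and 0.113 CPM at 2 wks (-3.89 ± 0.42, adjusted p = 3.8e-06). It then stood between 0.148 and 0.337 CPM at 7 wks, a rise of 1.39 ± 0.44 (adjusted p = 0.030). That rise lost the threshold without any single library of 2 wks or without 7 wks replicate 1 or 3 (1.20 to 1.52, adjusted p 0.052 to 0.085). The 7 neutrophil markers, among them *S100a8* and *Ngp*, summed to 8.52, 10.8, 28.9 and 7.43 CPM at E18.5, with the peak in the same library as that of *Mmp8*. They summed to 0.248 to 1.08 CPM at 2 wks and 0.643 to 1.12 CPM at 7 wks, and *Elane* had no read at 7 wks. The part of neutrophils was not tested, and in bulk muscle fewer cells of a type and less RNA per cell cannot be told apart.

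*Mmp3* and *Mmp12* rose to 2 wks from very few reads. *Mmp3*, a stromelysin that cuts proteoglycans and agrin, went from 0.0199 to 0.127 CPM at E18.5 to between 0.469 and 1.11 CPM at 2 wks (3.44 ± 0.48, adjusted p = 3.2e-05) and stayed between 0.495 and 1.02 CPM at 7 wks. *Mmp12*, the elastase of macrophages, had no read in E18.5 replicates 1 and 2 and was at 0.0244 and 0.0349 CPM in replicates 3 and 4. It was between 0.0503 and 0.465 CPM at 2 wks (3.81 ± 0.80, adjusted p = 0.00088). The 5 macrophage markers summed to 149 to 184 CPM at E18.5, 54.9 to 72.9 CPM at 2 wks and 15.1 to 54.1 CPM at 7 wks. To 2 wks *Mrc1*, which made up most of the E18.5 sum at 91.97 to 130.2 CPM, and *Adgre1* fell, and *Cd68*, *Itgam* and *Csf1r* did not pass. The part of macrophages was not tested.

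Among the remaining *Mmp* genes, *Mmp19* and *Mmp23* fell from 2 to 7 wks (-1.20 ± 0.37 and -1.75 ± 0.35, adjusted p 0.028 and 0.0029), and *Mmp11*, *Mmp27* and *Mmp28* passed in no comparison of ages with all 12 libraries. The fall of *Mmp19* lost the threshold in 6 fits, those without 2 wks replicates 1, 2 or 3 and those without 7 wks replicates 2, 3 or 4 (-1.03 to -1.20, adjusted p 0.058 to 0.080). *Mmp28* was at 1.32, 2.10, 11.9 and 7.14 CPM at E18.5, and *Mmp19* at 5.72, 6.63, 18.6 and 10.9 CPM. Both were highest in E18.5 replicates 3 and 4. In those libraries the 4 adipocyte markers summed to 1855 and 2624 CPM, against 229 and 175 CPM in the other E18.5 libraries, 419 to 482 CPM at 2 wks and 308 to 409 CPM at 7 wks. To 2 wks 3 of the 4 fell and none rose, with a median log2 change of -4.65, so the sums do not follow each marker. Without E18.5 replicates 3 and 4, a check added after seeing the data, *Mmp28* was higher at 7 wks than at E18.5 by 0.82 (adjusted p = 0.046), whereas with all libraries its change was -0.90 (adjusted p = 0.14). Without E18.5 replicate 1 that change was -1.23 (adjusted p = 0.023), and the change to 2 wks passed without E18.5 replicate 1 or 2 (-1.50 and -1.45, adjusted p 0.0091 and 0.022). The part of adipocytes was not tested.

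*Mmp24os1* (ENSMUSG00000074649, chromosome 2) was at 3.73, 7.92, 6.70 and 6.68 CPM at E18.5, at 33.1, 31.8, 39.3 and 39.1 CPM at 2 wks and at 30.4, 39.98, 54.3 and 43.4 CPM at 7 wks. No E18.5 library reached those of the later ages, and the rise to 2 wks was 2.52 ± 0.23 (adjusted p = 1.1e-06). *Mmp24*, the membrane-type enzyme on the other strand, stayed at or below 0.0653 CPM. The strand setting of the counting is not stated, so reads of such pairs are assigned with less certainty.

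**Figure D4:**
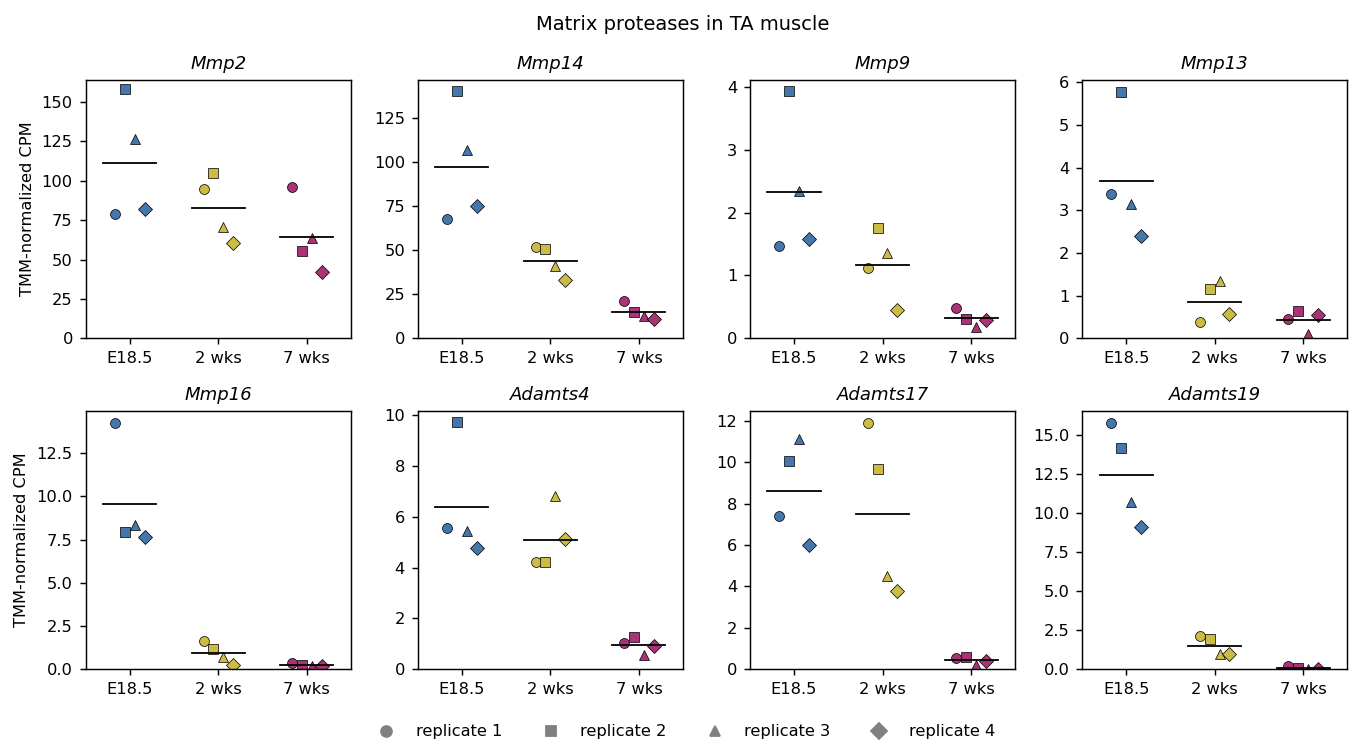
Levels of 8 protease genes in TMM-normalized CPM (y axes from 0, each with its own scale) at E18.5, 2 wks and 7 wks (x axis). Points are mice, shaped by replicate, and lines are means of 4. *Mmp14* steps down at each age without overlap, *Mmp13* and *Mmp16* drop before 2 wks, and *Adamts4* and *Adamts17* drop between 2 and 7 wks.

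The *Adamts* enzymes fell more than they rose, and no *Adamts* protease passed upwards in either interval with all libraries. *Adamts19* (ENSMUSG00000053441, chromosome 18), whose substrate is not established, was at 15.8, 14.2, 10.7 and 9.08 CPM at E18.5, at 2.11, 1.95, 0.958 and 0.980 CPM at 2 wks and at 0.180, 0.0466, 0.0153 and 0.0165 CPM at 7 wks. The ages did not overlap. Its log2 changes were -3.05 ± 0.40 and -4.62 ± 0.54 (adjusted p 2.2e-05 and 7.7e-05), the largest fall from E18.5 to 7 wks in the family. Its 7 wks libraries held 9, 3, 1 and 1 reads, so the size of the later fall is imprecise.

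*Adamts17* (ENSMUSG00000058145, chromosome 7), linked to fibrillin microfibrils, did not pass to 2 wks and fell afterwards. It was at 7.41, 10.05, 11.1 and 5.98 CPM at E18.5, at 11.9, 9.71, 4.53 and 3.79 CPM at 2 wks and at 0.562, 0.605, 0.214 and 0.412 CPM at 7 wks. The libraries of 7 wks lay below all others. The change was -0.21 ± 0.36 to 2 wks (adjusted p = 0.63) and -4.07 ± 0.43 afterwards (adjusted p = 3.7e-05), and the difference of -3.86 between the intervals passed as well (adjusted p = 0.00061).

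The proteoglycanases cut versican and aggrecan, and 2 of 7 fell to 2 wks, 3 fell from 2 to 7 wks and none rose in an interval, where 34.2% and 13.9% of all genes fell in turn. *Adamts4* (ENSMUSG00000006403, chromosome 1) was at 5.56, 9.72, 5.44 and 4.76 CPM at E18.5, at 4.23, 4.22, 6.80 and 5.13 CPM at 2 wks and at 1.02, 1.26, 0.567 and 0.923 CPM at 7 wks. The earlier ages overlapped and 7 wks lay below both. Its change was -0.32 ± 0.28 and then -2.43 ± 0.30 (adjusted p 0.32 and 0.00011).

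*Adamts15* fell to 2 wks (-1.36 ± 0.22, adjusted p = 0.00011) and *Adamts5* did so less firmly (-0.67 ± 0.25, adjusted p = 0.027). The fall of *Adamts5* was lost without E18.5 replicate 1 (-0.47, adjusted p = 0.098) or 2 wks replicates 1, 2 or 4 (-0.60 to -0.66, adjusted p 0.056 to 0.074). *Adamts9* and *Adamts20* fell from 2 to 7 wks (-1.01 ± 0.25 and -1.87 ± 0.44, adjusted p 0.0095 and 0.0073). *Adamts20* was split at 7 wks, with 13.4 and 13.5 CPM in replicates 1 and 2 and 2.65 and 3.38 CPM in replicates 3 and 4, against 25.8 to 34.5 CPM at 2 wks. *Adamts1*, the most abundant proteoglycanase at each age by RPKM, overlapped *Adamts8* at 7 wks and passed in no comparison with all libraries, with 95% intervals of -0.81 to 0.00 to 2 wks and -0.31 to 0.50 afterwards. Without 2 wks replicate 3 its change to 2 wks was -0.59 (adjusted p = 0.021).

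*Adamts8* was the *Adamts* protease that was higher at 7 wks than at E18.5 (2.21 ± 0.53, adjusted p = 0.0018). It was at 6.94, 7.80, 4.00 and 6.34 CPM at E18.5, at 4.21, 4.44, 21.5 and 12.4 CPM at 2 wks and at 52.9, 28.1, 22.9 and 11.8 CPM at 7 wks. The libraries of 2 wks were spread from the level of E18.5 to within that of 7 wks. Neither interval passed on its own (adjusted p 0.20 and 0.051), though the later one did without 2 wks replicate 3 (2.04, adjusted p = 0.012) or 7 wks replicate 4 (1.70, adjusted p = 0.032).

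Of the 3 procollagen N-proteinases, which remove the amino end of fibrillar procollagens, *Adamts14* fell in both intervals (-1.09 ± 0.31 and -1.73 ± 0.33, adjusted p 0.0074 and 0.0019). *Adamts2*, the main enzyme of skin and tendon, stood between 29.9 and 46.8 CPM at E18.5 and between 17.1 and 38.4 CPM at 7 wks and lay at the threshold over that period (-0.56 ± 0.24, adjusted p = 0.050). It passed without 7 wks replicate 1 (-0.84, adjusted p = 0.0025) or E18.5 replicate 4 (-0.64, adjusted p = 0.040). *Adamts3* did not pass in the comparisons of ages with all libraries, and its value without 7 wks replicate 1 was -1.37 over the whole period (adjusted p = 0.011) in place of -0.36.

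All 9 of the other *Adamts* enzymes were lower at 7 wks than at E18.5, where 37.1% of all genes were, and 7 of the 9 fell from 2 to 7 wks. *Adamts12* and *Adamts7*, which cut cartilage oligomeric matrix protein, differed in timing. *Adamts12* fell in both intervals (-1.43 ± 0.25 and -1.05 ± 0.25, adjusted p 0.00024 and 0.0079), from 68.9 to 111 CPM at E18.5 to between 8.04 and 21.0 CPM at 7 wks. *Adamts7* was between 8.39 and 19.4 CPM at E18.5 and 10.1 and 14.6 CPM at 2 wks, and fell to between 2.45 and 3.68 CPM at 7 wks (-1.98 ± 0.25, adjusted p = 0.00013). The difference between its intervals passed (-1.92 ± 0.40, adjusted p = 0.0028) and that of *Adamts12* did not (0.37 ± 0.44, adjusted p = 0.52).

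*Adamts10* and *Adamts6*, both tied to fibrillin microfibrils, also moved in different intervals. *Adamts6* fell to 2 wks (-2.03 ± 0.24, adjusted p = 8.6e-06) with 0.29 ± 0.24 afterwards, and *Adamts10* fell from 2 to 7 wks (-1.25 ± 0.24, adjusted p = 0.0022) after 0.51 ± 0.24. Without E18.5 replicate 2 or 2 wks replicate 4, the earlier change of *Adamts10* passed upwards (0.80 and 0.63, adjusted p 0.0035 and 0.046), and its fall over the whole period was -0.46 without E18.5 replicate 2 (adjusted p = 0.051). *Adamts13*, which cuts von Willebrand factor, had 111 reads at E18.5 and 28 at 2 wks in all, and none at 7 wks. With 3 reads over the 4 libraries as the floor, it was at least 7.32-fold lower at 7 wks than at 2 wks. *Adamts18* fell in both intervals (-1.17 ± 0.37 and -1.21 ± 0.40), the later fall being lost without 2 wks replicate 1 or 2 or 7 wks replicate 1, 3 or 4 (adjusted p 0.059 to 0.117). *Adamts16* was lower at 7 wks than at E18.5 by 2.06 on the log2 scale (adjusted p = 0.0065).

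Of the 5 ADAMTS-like genes, 3 rose to 2 wks, where 31.5% of all genes did, 1 fell and 1 did not pass, with a median of 1.60. From 2 to 7 wks none rose and 1 fell. *Adamtsl5* (ENSMUSG00000043822, chromosome 10), which binds fibrillin, was at 4.16, 8.21, 5.58 and 4.45 CPM at E18.5, at 36.8, 38.3, 66.2 and 85.0 CPM at 2 wks and at 57.7, 67.9, 61.5 and 56.9 CPM at 7 wks. All libraries after birth lay above those of E18.5. The rise was 3.34 ± 0.29 (adjusted p = 7.6e-07), and the change afterwards was 0.11 ± 0.27.

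*Adamtsl2* and *Adamtsl4*, also partners of fibrillin, rose to 2 wks by 2.22 ± 0.37 and 1.60 ± 0.31 on the log2 scale (adjusted p 0.00013 and 0.00049). *Adamtsl2* then fell by 1.17 (adjusted p = 0.026), a call lost in 6 of 12 fits, those without 2 wks replicates 1, 3 or 4 and those without 7 wks replicates 2, 3 or 4 (-0.95 to -1.20, adjusted p 0.050 to 0.090). Both stood higher at 7 wks than at E18.5 (1.05 and 0.91), while with total counts the changes were -0.23 and -0.37. That call was lost for *Adamtsl2* without E18.5 replicate 1 or 7 wks replicate 1 (0.88 and 0.84, adjusted p 0.052 and 0.057) and for *Adamtsl4* without 7 wks replicate 4 (0.75, adjusted p = 0.056). *Adamtsl3* fell to 2 wks (-1.34 ± 0.26, adjusted p = 0.00048), and *Adamtsl1* passed in no comparison.

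Levels of different genes were compared by RPKM, per exon length. At E18.5 *Mmp2* (31.5 ± 10.8 RPKM, SD, n = 4) and *Timp2* (30.8 ± 7.06) led with overlapping libraries, followed by *Timp3* (18.6 ± 3.81) and *Mmp14* (15.8 ± 5.37), which overlapped each other. *Timp2* did not overlap *Timp3*, whereas *Mmp2*, at 22.3 RPKM in its lowest library, overlapped *Timp3*, at 22.8 RPKM in its highest. At 2 wks *Timp3* (24.4 ± 3.03), *Mmp2* (23.5 ± 5.83), *Timp2* (22.6 ± 2.95) and *Mmp24os1* (21.7 ± 2.38) could not be separated with lengths over all exons. At 7 wks *Timp3* (29.8 ± 6.73), *Mmp24os1* (25.5 ± 5.98), *Timp2* (22.7 ± 8.76), *Timp4* (20.5 ± 7.64) and *Mmp2* (18.2 ± 6.46) each overlapped the next, and *Adamtsl5* (9.49 ± 0.781) came next without overlapping *Mmp2*. With the length of the longest transcript in place of all exons, *Timp2* (36.0), *Mmp2* (34.6) and *Timp3* (31.7 RPKM) led at E18.5. At 2 wks the mean of *Timp3* (41.4 RPKM) then stood above those of *Timp2* (26.4) and *Mmp2* (25.7). At 7 wks it stood at 50.6 RPKM, above *Timp4* (27.7), *Timp2* (26.4) and *Mmp24os1* (25.5). The order and overlaps given before therefore hold for lengths over all exons.

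Ratios within a library do not depend on the scaling between libraries and are given as a description. The summed RPKM of the *Mmp* genes, *Mmp24os1* left out, over that of the 4 *Timp* genes was 0.804, 1.49, 1.51 and 1.02 at E18.5, 0.954, 1.13, 0.790 and 0.695 at 2 wks and 0.584, 0.424, 0.462 and 0.318 at 7 wks. The first pair of ages overlapped and 7 wks lay below both. The ratio of *Mmp14* to *Timp2*, the pair that activates pro-MMP2, went from 0.509 ± 0.101 (SD, n = 4) to 0.314 ± 0.0366 and 0.1097 ± 0.0112, and the libraries of 7 wks lay below all others. That of *Mmp2* to *Timp2* was 1.02 ± 0.213, 1.03 ± 0.145 and 0.809 ± 0.0647, with overlap throughout. *Timp4* made up 1.48%, 15.5% and 27.7% of the summed *Timp* RPKM at the 3 ages in turn.

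**Figure D5:**
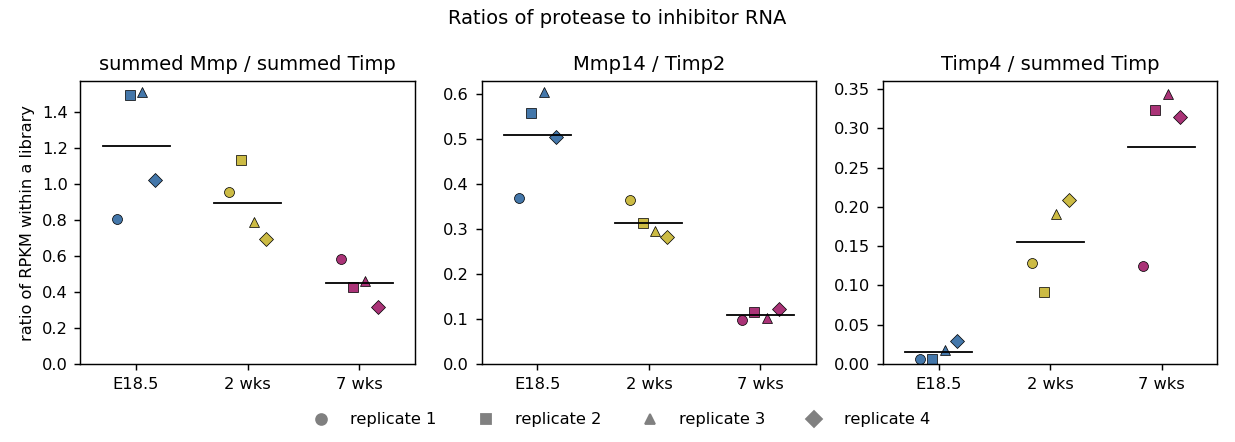
Ratios of RPKM within a library (y axes from 0) at E18.5, 2 wks and 7 wks (x axis) for the summed *Mmp* over summed *Timp* genes, *Mmp14* over *Timp2* and *Timp4* over the summed *Timp* genes. Points are mice, shaped by replicate, and lines are means of 4. The first ratio lies at or below 0.584 in every 7 wks library and at or above 0.695 in all others.

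Other genes of matrix turnover were counted from lists. Of 37 further proteases, activators and inhibitors, 35 were tested, of which 9 rose and 14 fell to 2 wks, and 3 rose and 13 fell from 2 to 7 wks, with medians of -0.15 and -0.52. Over all genes 31.5% rose and 34.2% fell to 2 wks, and 13.5% rose and 13.9% fell from 2 to 7 wks. *Reck*, a membrane-bound inhibitor of MMPs, fell in both intervals (-1.94 and -0.88), and so did *Adam12*, a protease of fusing myoblasts (-3.23 and -2.15). *Serpine2*, an inhibitor of thrombin and plasminogen activators, rose from 2 to 7 wks by 1.08. *Furin*, which activates membrane-type MMPs, rose to 2 wks by 1.44.

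Of 18 substrates, 17 were tested, with 3 rising and 9 falling to 2 wks, and with none rising and 12 falling from 2 to 7 wks, against the same shares of all genes. Their medians were -0.94 and -1.48. The versican gene *Vcan*, cut by the proteoglycanases, went from a mean of 415 CPM to 22.1 and 7.93 CPM. *Col4a1*, of the basement membrane, rose by 1.68 and then fell by 1.77 on the log2 scale, and *Col1a1*, of fibrillar collagen, changed by 0.09 to 2 wks, which did not pass, and then fell by 2.20.

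The labelled tissue was checked by its markers. The 6 myofiber genes summed to 6681 to 13447 CPM at E18.5, to 112577 to 147297 CPM at 2 wks and to 135537 to 152609 CPM at 7 wks. The 6 fibroblast markers, cells that make much of the matrix, summed to 1548 to 2197, 698 to 965 and 434 to 1166 CPM, with 5 falling and 1 rising to 2 wks. At 7 wks replicate 1 had 1166 CPM of them against 434 to 600 CPM in the others, and it held the highest value of the 7 wks libraries for 22 of the 45 genes tested. E18.5 replicate 2 held the highest E18.5 value for 26 of the 45. The same counts were not made over all genes tested, so they do not set these genes apart. Without E18.5 replicate 2, 10 genes rose and 13 fell to 2 wks, and without 7 wks replicate 1, 1 rose and 24 fell from 2 to 7 wks. Of all genes, 12932 of 19602 and 4519 of 19929 passed in those fits in turn. The 5 markers of pericytes and smooth muscle summed to 209 to 268, 873 to 1011 and 834 to 1043 CPM, and all 5 rose to 2 wks. The part of these cells in the levels above was not tested.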

How the data were processed

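The authors prepared polyA libraries with a stranded kit (TruSeq Stranded mRNA) and sequenced them as read pairs. Per the labels and methods, reads were trimmed with cutadapt 1.10, mapped with STAR 2.5.3a and counted with HTSeq 0.6.1p1. The deposited values are raw counts per Ensembl gene, 1 column per library, and all columns were used. The methods name the build GRCm39 and the submitters' processing notes mm10. The annotation and the strand setting are not given in the sources used here. Gene types, exon lengths, GC content (known for 98.7% of the tested genes) and overlaps came from GENCODE vM39. Of the members, 16 share an exon with another gene of the count table, and others overlap only genes that are not in it.

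Counts were TMM-normalized, filtered with filterByExpr (19276 of 55450 genes kept) and fitted with edgeR 4.0.16 (limma 3.58.1, R 4.3.3) in 1 model of 12 libraries, with age as the term and Benjamini-Hochberg adjustment. The biological coefficient of variation was 0.279. Mice of the same age differed beyond counting noise (chi-square per degree of freedom 34.3 to 576.9 over 18 pairs). Members and lists were chosen with earlier results of these data known. Named with every library were the *Timp* genes, *Mmp2*, *Mmp9*, *Mmp13*, *Mmp14* and, per interval, up to 3 called members with the largest rise and fall at a mean log2 CPM of at least 0, other members being given by class and singled out after their values were seen. The procedure was also run on simulated counts in which few genes changed. That run does not test the scaling between ages, where most genes passed. Alternatives were total-count and upper-quartile scaling, TMM without the 20 most abundant and the mitochondrial genes, DESeq2 1.42.0, other filters, the replicate number as a block, 8 libraries at a time, a log2 change beyond 1, removal of the GC trend, lengths of the longest transcript, and each library left out. Leaving out E18.5 replicates 3 and 4 together was added after seeing the data. Protein sequences were not used here. Marker lists for tendon, osteoclasts, mast cells, endothelium, Schwann cells and epidermis were also summed. A result on 1 overlapping gene is not reported here.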

Additional observations from a re-analysis of the deposited data

Results flagged for a closer look

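A library stood far from the other 3 of its age in 9 of 134 sets of 4 values (Dixon's criterion at the 95% level), where chance gives about 6.7. At E18.5, replicate 2 stood out for *Adamts14* (35.1 CPM, others 13.4 to 16.5), *Adamts4* (9.72 CPM, others 4.76 to 5.56) and *Adamtsl4* (21.3 CPM, others 9.07 to 10.2). Replicate 1 of that age stood out for *Mmp16* (14.3 CPM, others 7.62 to 8.36) and replicate 3 for *Mmp8* (2.47 CPM, others 0.956 to 1.15). At 2 wks, replicate 1 stood out for *Adamts6* (1.61 CPM, others 1.28 to 1.32). At 7 wks, replicate 1 stood low for *Mmp28* (1.89 CPM, others 3.31 to 3.55) and for *Timp4* (70.8 CPM, others 178 to 196), and replicate 4 stood high for *Timp3* (325.1 CPM, others 213.8 to 217.5). The causes were not tested.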

How the results depend on the processing

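The number of members past the threshold from E18.5 to 2 wks was 21 in the fit as reported, 37 with total counts and 13 with a log2 change beyond 1 required. Of those 13, 8 rose and 5 fell, against 8 and 13 in the fit as reported. Of the 19276 genes tested, 12668, 14469 and 5507 passed in these fits in turn. Without the filter, the median change was -0.26 in the family and -0.37 over all genes. From 2 to 7 wks the requirement of a log2 change beyond 1 left 6 of 21, and for the difference between the intervals 12 of 19. Over all genes it left 561 of 5295 and 2463 of 7398. By construction it asks for larger changes. For the count over the whole period no alternative moved it by more than 1.5 times. Leaving out 1 library gave 19 to 23 calls to 2 wks, 16 to 25 from 2 to 7 wks, 31 to 38 over the whole period and 16 to 20 for the difference. Over all genes those fits gave 11810 to 13199, 3472 to 6146, 13244 to 13929 and 5273 to 8297 calls, with 19494 to 19937 genes tested.

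Directions turned with total counts for *Timp3* (-0.53 to 2 wks, -0.59 over the whole period), *Mmp15* (-0.44), *Adamtsl2* (-0.23) and *Adamtsl4* (-0.37) over the whole period, and *Adamts2* (-0.82), *Mmp11* (-0.89) and *Mmp17* (-0.63) to 2 wks. Removing the GC trend gave -0.66 for *Mmp11* to 2 wks, and leaving out E18.5 replicates 3 and 4 gave 0.82 for *Mmp28* over the whole period. The median change of all genes was -1.02, -0.38 and -1.36 with total counts in the 3 comparisons of ages, and -0.23, -0.14 and -0.33 with upper-quartile scaling.

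Libraries with the same replicate number deviated together in some pairs and not in others (r of -0.14 to 0.28 over 12 pairs), so the numbers were not taken to pair the mice. With the replicate block, 22 members passed to 2 wks, 26 from 2 to 7 wks, 37 over the whole period and 18 for the difference. Of the 19276 genes tested, 12470, 5148, 13611 and 7287 passed in turn. Without E18.5 replicates 3 and 4 the counts were 20, 22, 34 and 19, and of 19940 genes tested 11573, 5138, 12891 and 6590 passed. Among members and alternatives run, TMM without the most abundant genes changed no call of a member between ages.

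Counting error was small for *Mmp14* or *Timp3*, whereas for genes under about 0.1 CPM, such as *Mmp12* at E18.5, few reads limit the value. Exon lengths set the RPKM, and with the longest transcript the summed ratio was 1.16, 0.765 and 0.364. Leaving out the most abundant gene of each sum, *Mmp2* and *Timp2*, gave 1.55, 0.818 and 0.30. The 4 mice of an age were sampled once each, and litter, sex and day of preparation are not given.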

Other observations

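Among marker lists of cells that can hold these proteases, the 4 mast cell genes summed to 368 to 843 CPM at E18.5, 13.7 to 40.1 CPM at 2 wks and 5.15 to 19.2 CPM at 7 wks, and all 4 fell to 2 wks. The 5 osteoclast markers summed to 34.5 to 51.0, 16.3 to 32.1 and 9.56 to 19.3 CPM, and the 3 tendon markers to 49.7 to 172, 7.56 to 37.4 and 6.76 to 35.2 CPM. *Ctsk*, at 26.4 to 43.1 CPM at E18.5, and *Atp6v0d2* fell to 2 wks, while *Acp5* and *Calcr* did not pass. *Tnmd*, at 47.0 to 166 CPM at E18.5, and *Mkx* fell to 2 wks, while *Scx* did not pass. The 4 endothelial markers summed to 309 to 457, 688 to 839 and 409 to 703 CPM. Those of Schwann cells reached 436 CPM in 2 wks replicate 1, against 80.8 to 154 CPM in the other 2 wks libraries. Epidermal markers summed to 48.9 CPM in E18.5 replicate 2 and to at most 7.58 CPM in the other 11 libraries. The part of these cells in the levels of the proteases and inhibitors was not tested.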
